A study of Mus musculus with 8 samples.

Results

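The receptors through which liver cells sense bile acids, foreign chemicals, sterols, fatty acids and glucocorticoids were followed as a set of 10 among the 21899 genes of the table. The genes were taken by symbol: Nr1h4, Nr0b2, Nr5a2, Nr1i2, Nr1i3, Ahr, Nr1h3, Ppara, Nr3c1 and Rxra. Measured values played no part in the rule, although earlier results of these data were known when it was written. RNA sequencing had been done on 8 mouse liver samples, 4 deficient in P2X4R and 4 wild type, all collected 8 h after ConA. P2X4R, the product of P2rx4, is a cation channel opened by extracellular ATP. ConA (concanavalin A) is a lectin from jack beans that stimulates T cells and injures the liver. All 8 samples therefore came from livers that had received ConA, and untreated livers were not analysed here. The sample labels describe the altered genotype as a knockdown of P2X4R and the series text as P2X4R-/-. Neither names the allele, the cells in which it acts, the mouse strain, the sex or the age. Nothing in the labels ties each library to its own animal, so the p-values describe the spread between these samples, which may be technical. The question is how the hepatitis transcriptome differs between P2X4R-deficient and wild-type liver, and here it is put to the receptors and to the genes they control.

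Of the 10, 9 are nuclear receptors in the strict sense, and Ahr encodes the aryl hydrocarbon receptor, a ligand-activated factor of another protein family. FXR (Nr1h4) is the bile acid sensor, SHP (Nr0b2) is the repressor that FXR induces, and LRH-1 (Nr5a2) drives the bile acid synthesis genes that SHP shuts off. PXR (Nr1i2), CAR (Nr1i3) and AHR respond to foreign chemicals and switch on drug-metabolising enzymes and transporters. LXR alpha (Nr1h3) senses oxysterols, PPAR alpha (Ppara) senses fatty acids, and the glucocorticoid receptor (Nr3c1) responds to adrenal steroids. RXR alpha (Rxra) is the dimer partner of FXR, PXR, CAR, LXR and PPAR alpha, whereas AHR pairs with ARNT. Inflammation is known to lower many of the genes these receptors control in hepatocytes.

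Many of the receptors bind repeats or single copies of AGGTCA, and the dimer of AHR and ARNT binds a core of GCGTG. Both were searched, on both strands, in the 250 bases upstream of RefSeq transcription starts (GRCm38.p6). AGGTCA occurred in 14.0% and GCGTG in 28.2% of 32851 such windows, which belong to 27025 gene symbols. The RefSeq promoter table held 11 starts of 8 receptor genes, and named no start of Ahr or Nr3c1. Of these 11 starts, 3 held AGGTCA (Nr1h4, the first start of Nr5a2 and the second of Rxra) and 3 held GCGTG (Nr0b2, the second start of Nr5a2 and Ppara). Windows are printed for the genes on which the results turn, from 5′ to 3′ on the strand of the gene, ending at the base before the start, with both motifs and their reverse complements TGACCT and CACGC in capitals. They belong to Nr5a2, a receptor gene that fell, to Nr1h4, whose product the bile acid results concern, and to 3 target genes that also fell, namely the bile salt export pump gene Abcb11, the LRH-1 target Gnmt and the AHR target Tiparp. The 3 target genes were chosen after their values were seen.
Nr5a2, first start, chr1:136960449-136960698, minus strand: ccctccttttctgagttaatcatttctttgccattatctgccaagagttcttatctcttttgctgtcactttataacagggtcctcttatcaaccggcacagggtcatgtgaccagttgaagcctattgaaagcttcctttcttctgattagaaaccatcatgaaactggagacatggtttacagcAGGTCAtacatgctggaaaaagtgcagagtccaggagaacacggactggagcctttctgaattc
Nr5a2, second start, chr1:136953631-136953880, minus strand: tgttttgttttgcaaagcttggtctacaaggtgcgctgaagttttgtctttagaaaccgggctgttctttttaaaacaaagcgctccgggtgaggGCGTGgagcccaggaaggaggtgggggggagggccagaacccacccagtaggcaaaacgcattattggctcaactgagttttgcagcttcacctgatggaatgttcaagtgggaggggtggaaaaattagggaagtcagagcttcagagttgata
Nr1h4, chr10:89506659-89506908, minus strand: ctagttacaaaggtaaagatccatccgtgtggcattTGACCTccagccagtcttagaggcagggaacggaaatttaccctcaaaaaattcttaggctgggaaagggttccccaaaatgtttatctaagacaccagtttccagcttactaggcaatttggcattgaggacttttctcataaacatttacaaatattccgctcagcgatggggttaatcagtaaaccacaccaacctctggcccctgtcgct
Abcb11, chr2:69342617-69342866, minus strand: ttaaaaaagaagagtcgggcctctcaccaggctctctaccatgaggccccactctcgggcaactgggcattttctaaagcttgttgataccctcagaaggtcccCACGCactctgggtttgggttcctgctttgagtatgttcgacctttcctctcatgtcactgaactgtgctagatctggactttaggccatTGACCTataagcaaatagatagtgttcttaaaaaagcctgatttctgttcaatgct
Gnmt, chr17:46729166-46729415, minus strand: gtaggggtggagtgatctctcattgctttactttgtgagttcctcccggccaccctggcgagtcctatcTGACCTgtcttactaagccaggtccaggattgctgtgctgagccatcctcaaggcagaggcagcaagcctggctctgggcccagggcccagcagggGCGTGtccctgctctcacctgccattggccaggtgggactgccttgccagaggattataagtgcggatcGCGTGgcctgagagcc
Tiparp, chr3:65528197-65528446, plus strand: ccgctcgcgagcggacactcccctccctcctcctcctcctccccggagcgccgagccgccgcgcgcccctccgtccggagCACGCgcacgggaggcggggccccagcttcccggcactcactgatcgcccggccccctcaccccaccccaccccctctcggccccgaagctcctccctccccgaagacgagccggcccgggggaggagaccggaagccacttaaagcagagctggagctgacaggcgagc

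The first start of Nr5a2 has AGGTCA beginning 64 bases before it and the second has GCGTG 155 bases before it. In Nr1h4 the match to AGGTCA lies on the opposite strand, 214 bases before the start. Abcb11 carries AGGTCA at 56 and GCGTG at 146 bases, both on the opposite strand. Gnmt carries AGGTCA at 181 bases on the opposite strand, and GCGTG at 85 and 16 bases on its own strand. Tiparp carries GCGTG at 170 bases on the opposite strand. A match describes letters in a window and is not evidence of a bound site, and its absence says only that the letters are not there.

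The genotype and the libraries were checked first. P2rx4 reads numbered 286, 401, 467 and 516 in deficient libraries 1 to 4, against 692, 888, 906 and 898 in wild type 1 to 4. The gene fell by 1.18 log2 units (SE 0.19, edgeR adjusted p = 0.00481) and still had reads in all 8 libraries. The libraries held between 15445285 and 16604190 counted reads. Every library was rich in albumin (Alb) transcript, the defining product of hepatocytes, at 55473 to 96659 CPM, read counts scaled to a common library total with TMM factors. Of all genes tested, 9.27% were called higher and 10.6% lower in deficient livers, at an edgeR adjusted p under 0.05. Of 17 hepatocyte markers tested, 0 rose and 2 fell (0 without wild type 3, 1 without deficient 1 or 3, and 5 with DESeq2). Their summed level was 121308 to 156361 CPM in deficient and 145472 to 175655 CPM in wild-type libraries, and 65835 to 77230 against 58670 to 78997 CPM with Alb taken off. Of 11 neutrophil markers tested, 3 were called higher and 0 lower, and Ly6g was too low to test. Their sum of 6937 to 8001 against 3636 to 6061 CPM was almost all Lcn2, which is also an acute phase gene, and without Lcn2 it was 97.1 to 187 against 28.6 to 105 CPM, with overlap. The number called higher was 0 without deficient 4 and 7 without wild type 1. Kupffer cell markers had 0 rises and 3 falls among 9 tested (42.2 to 60.7 against 56.3 to 184 CPM), stellate cell markers 0 and 4 of 11 (175 to 350 against 279 to 464 CPM), and cholangiocyte markers 0 and 1 of 6 (47.2 to 158 against 201 to 242 CPM). The Kupffer cell falls numbered 0 without deficient 1 or deficient 3. They numbered 1 with library size alone or upper-quartile scaling, or without deficient 2 or 4 or wild type 1 or 2. The Kupffer cell sum was 184 CPM in wild type 1 and 56.3 to 89.6 CPM in the other wild-type libraries. The stellate cell falls numbered 2 without deficient 2 or 3 or without wild type 1, 2 or 3. With library size alone or upper-quartile scaling they also numbered 2. The cholangiocyte fall was lost without deficient 3 or 4 or without wild type 3, and the sums of that list overlapped with its most abundant gene, Sox9, taken off (28.4 to 102 against 54.8 to 77.3 CPM). The part of these shifts in the results below was not tested.

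Ahr and Nr5a2 fell in deficient livers, and no receptor gene rose. Ahr was at 31.6% of its wild-type level and Nr5a2 at 54.3%. The other 7 tested genes, among them the receptors for bile acids (Nr1h4), drugs (Nr1i2 and Nr1i3), oxysterols (Nr1h3) and fatty acids (Ppara), did not pass the test, and Nr0b2 was too low to test. With edgeR's quasi-likelihood test and a Benjamini-Hochberg adjusted p under 0.05 over all 11380 genes tested, 19.9% of genes differed between the genotypes, 9.27% higher and 10.6% lower in deficient livers. Among the 9 receptor genes tested, 2 is close to what those shares give. The groups did not overlap in CPM for 24.9% of all genes tested and for 2 of the 10 receptor genes, the same Ahr and Nr5a2. The median log2 fold change of the 9 was -0.29 and 7 of the 9 were negative, beside a median of -0.0015 over all genes tested. In whole liver, fewer cells that carry a transcript and less transcript in each cell cannot be told apart.

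**Figure D1:**
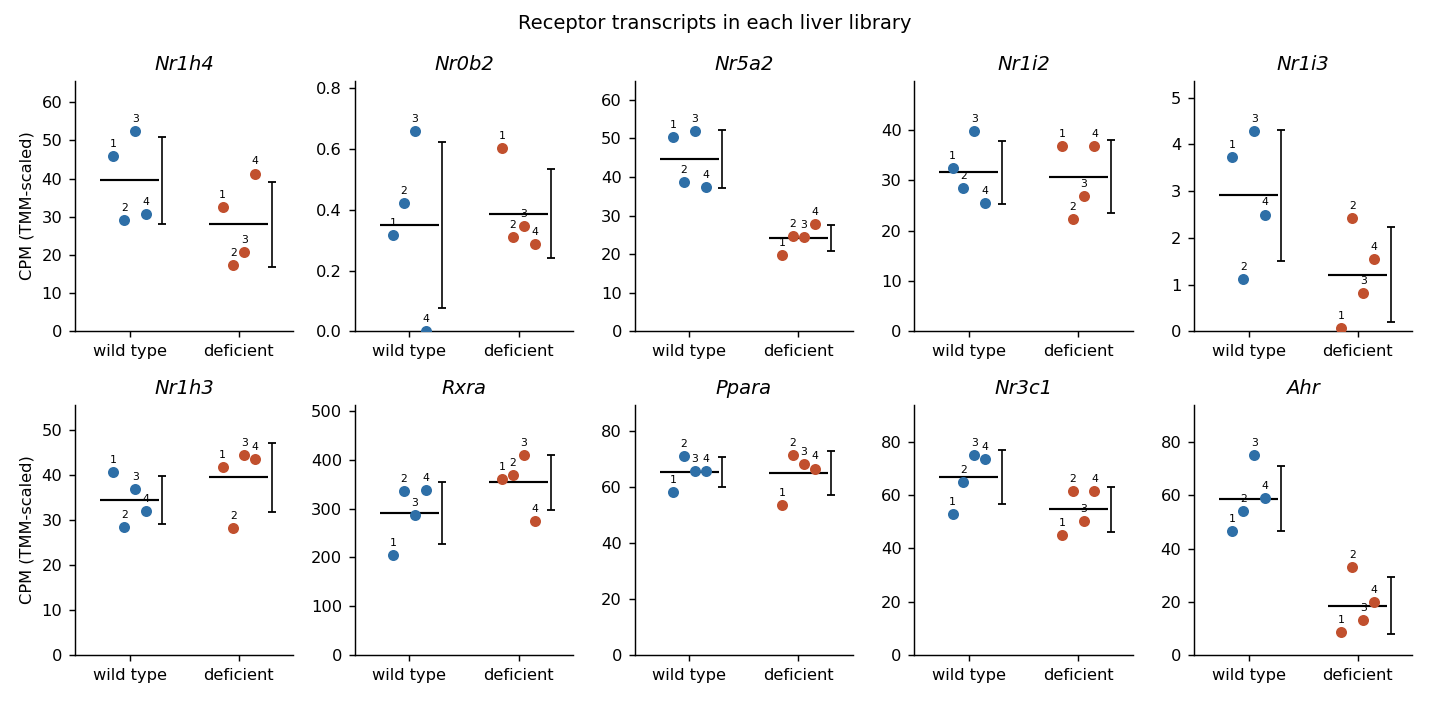
Level of each receptor transcript in every library, in TMM-scaled CPM, for 4 wild-type (blue) and 4 deficient (orange) livers, numbered by replicate; the horizontal line is the group mean and the bar is 1 SD to each side. The groups separate for Ahr and Nr5a2 and overlap for the other 8 genes, and the vertical scales differ between panels.

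The most abundant receptor transcript was Rxra. In FPKM, the deposited read counts scaled to gene length and library total, by which genes can be ranked within a library, it averaged 43.7 ± 8.57 (SD, n = 4) in wild-type and 59.1 ± 10.1 in deficient livers. Below it in wild type came Nr1h4 at 16.4 ± 4.81, Ppara at 16.1 ± 0.799, Nr1h3 at 13.1 ± 2.41 and Nr1i2 at 11.7 ± 2.23 FPKM. Then followed Ahr at 9.02 ± 1.65, Nr3c1 at 8.22 ± 1.09 and Nr5a2 at 7.19 ± 1.32 FPKM. Nr1i3 at 0.630 ± 0.307 and Nr0b2 at 0.290 ± 0.222 FPKM were far lower than the rest. Rxra exceeded the next gene in 4 of 4 wild-type libraries, as did Nr1i2 over Ahr and Nr5a2 over Nr1i3. The remaining neighbours in the order changed places in at least 1 library, Nr1h4 and Ppara in 2 of 4, so their order is not fixed by these data. In deficient livers the order was Rxra, Ppara (17.7 ± 1.90 FPKM), Nr1h3 (16.5 ± 3.55), Nr1h4 (12.8 ± 5.13), Nr1i2 (12.7 ± 3.16), Nr3c1 (7.45 ± 0.962), Nr5a2 (4.31 ± 0.559), Ahr (3.12 ± 1.70), Nr0b2 (0.361 ± 0.143) and Nr1i3 (0.283 ± 0.231). There Nr3c1 exceeded Nr5a2 in 4 of 4 libraries and Nr5a2 exceeded Ahr in 3 of 4, whereas in wild type Ahr stood above Nr3c1 in 3 of 4 and Nr3c1 above Nr5a2 in 3 of 4.

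**Figure D2:**
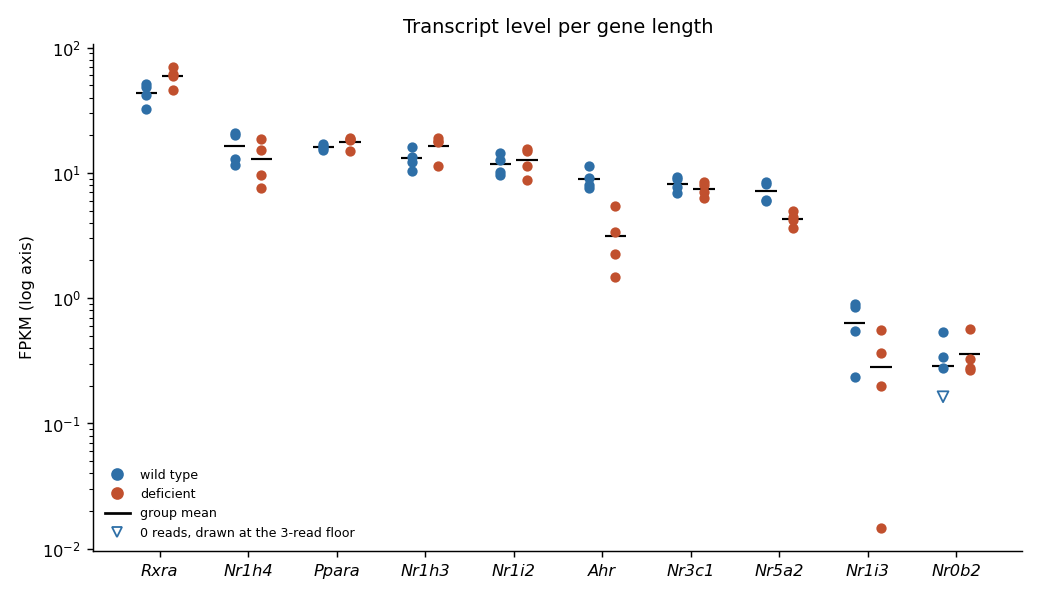
Transcript level per gene length, in FPKM on a log axis, of the 10 receptor genes in each wild-type (blue) and deficient (orange) liver, with the group mean as a line; the open triangle marks 0 Nr0b2 reads in wild type 4, drawn at the level of 3 reads, 0.163 FPKM. Rxra leads in both groups, Nr1i3 and Nr0b2 lie below 1 FPKM in every library, and Ahr averages 9.02 FPKM in wild-type and 3.12 FPKM in deficient livers.

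Of the bile acid group, the transcript of the synthesis activator LRH-1 was lower, and that of its repressor SHP was scarce in either genotype. Nr5a2 (ENSMUSG00000026398; chromosome 1, 136770309 to 136888186 on the minus strand, as the table lists it with no build given) had 329, 397, 424 and 485 reads in deficient 1 to 4 and 795, 550, 787 and 585 in wild type 1 to 4. Scaled, these are 19.9, 24.7, 24.5 and 27.9 CPM against 50.3, 38.7, 51.9 and 37.5 CPM. All 4 deficient libraries lay below the lowest wild-type library, and the means were 24.2 ± 3.30 and 44.6 ± 7.56 CPM (SD, n = 4). Nr5a2 fell by 0.88 log2 units (SE 0.17, edgeR adjusted p = 0.00765), to 54.3% of wild type, and the 95% interval ran from 42.2% to 70%. Permuting the CPM values over the libraries gave an exact two-sided p of 0.0286, the smallest that 4 against 4 libraries can give. Every gene whose groups do not overlap has this p, as 24.9% of all genes tested do, so it adds nothing to the separation.

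The transcript of the bile acid receptor itself varied widely between libraries of the same genotype. Nr1h4 (ENSMUSG00000047638; chromosome 10, 89290096 to 89369447, minus strand) stood at 32.6, 17.3, 20.7 and 41.3 CPM in deficient 1 to 4 and at 45.9, 29.2, 52.4 and 30.8 CPM in wild type 1 to 4. Deficient 1 and 4 lay within the wild-type range and deficient 2 and 3 below it. The difference of -0.50 (SE 0.28, edgeR adjusted p = 0.230) left an interval of 46.3% to 108% of wild type, which holds both no change and a fall as large as that of Nr5a2. Nr0b2 (ENSMUSG00000037583; chromosome 4, 133280687 to 133283847, plus strand) had 10, 5, 6 and 5 reads in deficient 1 to 4 and 5, 6, 10 and 0 in wild type 1 to 4, 26 against 21 in all. It was removed by the expression filter, and without the filter its difference was 0.18 (SE 0.79, edgeR adjusted p = 0.907). At a few reads a library, a difference in Nr0b2 was not detectable at this depth.

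Genes of bile acid handling also fell. Among 12 tested targets of FXR and SHP, 0 rose and 8 fell, beside 9.27% and 10.6% of all genes tested. The median log2 fold change of these targets was -1.15. Cyp7a1, the rate-limiting enzyme of the classic bile acid synthesis route, had 3, 4, 0 and 2 reads in deficient 1 to 4 against 17, 13, 29 and 16 in wild type 1 to 4, and fell by 3.13 (SE 0.62, edgeR adjusted p = 0.00916). It was scarce in every library, yet the groups did not overlap. Slc10a1, the NTCP transporter that takes bile salts up from blood, stood at 45.0 CPM in deficient 1 and at 106 to 140 CPM in the other deficient libraries, against 234 to 374 CPM in wild type. It fell by 1.46 (SE 0.30, edgeR adjusted p = 0.0101). Abcb4, which exports phospholipid into bile, fell by 1.15 (SE 0.22, edgeR adjusted p = 0.0084), from 140 ± 47.0 to 63.0 ± 7.52 CPM (SD, n = 4). Osgin1, an oxidative stress gene that FXR is known to induce, fell by 2.29 (SE 0.39, edgeR adjusted p = 0.00536) with 42.4 to 203 CPM in deficient and 503 to 677 CPM in wild-type livers. Abcb11, which FXR also induces, was at -1.16 (edgeR adjusted p = 0.0174), and its call was lost without deficient 3 or wild type 3. The 8 falls include both genes that FXR raises (Abcb11, Abcb4 and Osgin1) and genes that its target SHP holds down (Cyp7a1, Cyp8b1 and Slc10a1). The count of falls was 5 without deficient 3 or without wild type 3.

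Among 10 LRH-1 targets, all tested, 0 rose and 5 fell, beside 9.27% and 10.6% of all genes tested. All 10 targets were negative, with a median of -0.60. Cyp7a1 and the sterol 12-alpha-hydroxylase gene Cyp8b1 belong to this list and to the previous one, so the counts are not separate. Shmt1, a folate enzyme that interconverts serine and glycine, stood at 19.8, 34.3, 19.3 and 31.9 CPM in deficient 1 to 4 and at 85.2, 71.7, 96.7 and 73.6 CPM in wild type 1 to 4. The groups did not overlap, and Shmt1 fell by 1.64 (SE 0.22, edgeR adjusted p = 0.0037). Cyp8b1 stood at 0.483, 14.1, 1.33 and 5.29 CPM against 23.7, 23.5, 54.9 and 20.6 CPM and fell by 2.54 (SE 0.71, edgeR adjusted p = 0.0288). Wild type 3 was the highest of its group, and without it the edgeR adjusted p of Cyp8b1 was 0.0888. Leaving out deficient 3 or deficient 4, or robust fitting, also ended that call. The log2 fold change of Cyp8b1 was -3.69 without deficient 2 and -3.40 with limma voom. Gnmt, which methylates glycine, was at -0.58 (edgeR adjusted p = 0.0468), a call that was lost in 13 of 18 other settings, among them each library left out except deficient 2. The stress kinase gene Plk3 fell by 1.02 (SE 0.32, edgeR adjusted p = 0.0432), with 1053 CPM in wild type 1 and 424 to 524 CPM in the other wild-type libraries, and its call was lost in 10 of 18 other settings. The number of falls was 3 with library size alone as the scaling or without deficient 1, wild type 1 or wild type 4, and 2 with limma on log2 FPKM or without deficient 3 or wild type 3.

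**Figure D3:**
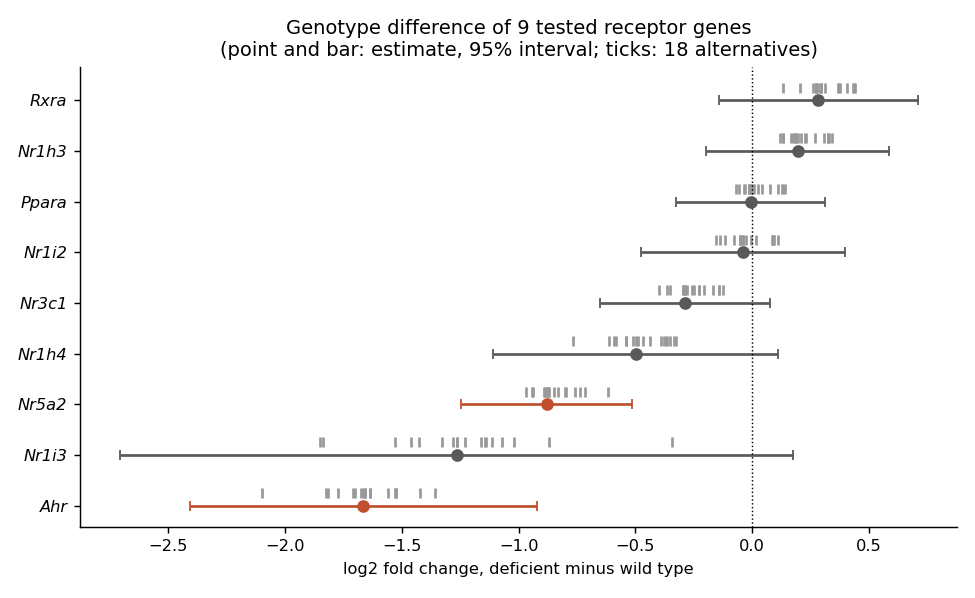
Log2 fold change, deficient minus wild type, of the 9 receptor genes tested; points and bars give the edgeR estimate and its 95% interval, orange where the adjusted p is under 0.05, and grey ticks give the estimate under each of 18 other settings. Ahr at -1.66 and Nr5a2 at -0.88 have intervals that exclude 0, and the 7 others cross it.

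Of the genes of receptors for foreign chemicals, Ahr was the one called lower. Ahr (ENSMUSG00000019256; chromosome 12, 35547973 to 35585037, minus strand) had 140, 532, 224 and 343 reads in deficient 1 to 4 and 737, 770, 1141 and 919 in wild type 1 to 4. Scaled, these are 8.45, 33.0, 13.0 and 19.7 CPM against 46.6, 54.1, 75.2 and 58.9 CPM. Deficient libraries spread widely among themselves, yet the highest, deficient 2, stayed below the lowest wild-type library. Means were 18.5 ± 10.7 and 58.7 ± 12.1 CPM (SD, n = 4), and Ahr fell by 1.66 log2 units (SE 0.34, edgeR adjusted p = 0.0099), to 31.6% of wild type, and the 95% interval ran from 18.9% to 52.8%. The exact two-sided permutation p was again 0.0286, the value that any gene without overlap has. Its dimer partner Arnt fell by 0.64 (SE 0.18, edgeR adjusted p = 0.0278), from 55.4 ± 5.11 to 35.5 ± 7.99 CPM (SD, n = 4), and lost its call in 8 of 18 other settings, among them those without deficient 1 or 3 and without wild type 1 or 3. The ratio of Ahr to Arnt in FPKM was 0.436, 0.969, 0.488 and 0.673 in deficient 1 to 4 and 0.969, 1.37, 1.75 and 1.47 in wild type 1 to 4. Deficient 2 and wild type 1 met at almost the same ratio, and the difference of -1.16 on the log2 scale had an exact two-sided permutation p of 0.0571 (0.24 adjusted over 7 ratios).

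Of 12 AHR targets, 7 were tested, and 0 rose and 3 fell, beside 9.27% and 10.6% of all genes tested. The median of the 7 was -0.60. Tiparp, which encodes an ADP-ribosyltransferase that feeds back on AHR, fell by 1.05 (SE 0.28, edgeR adjusted p = 0.024), from 421 ± 27.7 to 203 ± 94.4 CPM (SD, n = 4), and lost its call without deficient 1 or 3 and without wild type 3 or 4. The glucuronidation gene Ugt1a6b fell by 1.28 (SE 0.35, edgeR adjusted p = 0.0257), a call lost without deficient 4, wild type 3 or wild type 4, and since Ugt1a genes share exons its reads are uncertain. No difference was called for the classic AHR genes Cyp1a1 and Cyp1a2. Cyp1a1 had 6, 6, 3 and 0 reads in deficient 1 to 4 and 0, 0, 0 and 4 in wild type 1 to 4, too few to test. Cyp1a2, which pericentral hepatocytes hold, stood at 284 ± 83.6 against 388 ± 91.7 CPM (SD, n = 4) and differed by -0.45 (edgeR adjusted p = 0.219). Cyp1b1, which other liver cells are known to express, was at 1.54 (SE 0.62, edgeR adjusted p = 0.0975), and at 0.63 without deficient 1, whose 9.23 CPM compares with 1.55 to 2.26 CPM in the other deficient libraries. Without wild type 3, or without wild type 4, 1 AHR target fell rather than 3.

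The genes of the drug receptors PXR and CAR had no called difference. Nr1i2 (ENSMUSG00000022809; chromosome 16, 38068685 to 38115186, minus strand) stood at 36.7, 22.4, 26.9 and 36.7 CPM in deficient 1 to 4 and at 32.5, 28.4, 39.8 and 25.5 CPM in wild type 1 to 4. The groups overlapped throughout, and the difference of -0.04 (SE 0.20, edgeR adjusted p = 0.910) left an interval of 72.0% to 132% of wild type. Nr1i3 (ENSMUSG00000005677; chromosome 1, 171041539 to 171048270, plus strand) had 1, 39, 14 and 27 reads in deficient 1 to 4 and 59, 16, 65 and 39 in wild type 1 to 4. Its point estimate, -1.26 (SE 0.66, edgeR adjusted p = 0.197), was lower than that of Nr5a2, but the interval of 15.3% to 113% of wild type is wide, and deficient 2 equalled wild type 4 in reads. The estimate ran from -1.85 with limma voom to -0.34 with limma on log2(FPKM + 1). Nr1i3 also overlaps Tomm40l on the opposite strand by 4691 bases, and without stated strand the 260 reads of the former and 159 of the latter may be mixed.

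Of 25 PXR and CAR targets tested, 0 rose and 13 fell, beside 9.27% and 10.6% of all genes tested. The median of the 25 was -0.80. Cyp2a5, a hydroxylase of coumarin and nicotine, stood at 143, 217, 111 and 212 CPM in deficient 1 to 4 against 532, 553, 491 and 283 CPM in wild type 1 to 4, and fell by 1.44 (SE 0.26, edgeR adjusted p = 0.00665). Abcc2, which exports conjugates into bile, fell by 1.43 (SE 0.26, edgeR adjusted p = 0.00665), from 144 ± 43.5 to 53.4 ± 16.6 CPM (SD, n = 4). Cyp2b9 fell by 1.44 (SE 0.27, edgeR adjusted p = 0.00756) and Cyp3a25 fell by 1.51 (SE 0.30, edgeR adjusted p = 0.00949). Cyp3a11, the major mouse CYP3A and a standard PXR gene, stood at 1336, 1816, 1083 and 1293 CPM in deficient 1 to 4 and at 1771, 2913, 2487 and 2473 CPM in wild type 1 to 4, and fell by 0.80 (edgeR adjusted p = 0.0198). The highest deficient value of Cyp3a11 exceeded the lowest wild-type value, and the call was lost without deficient 3, wild type 2 or wild type 3. Cyp2b10, the standard CAR gene, stood at 19.6 ± 9.84 against 14.3 ± 7.07 CPM (SD, n = 4) and differed by 0.46 (edgeR adjusted p = 0.460). The Cyp2b, Cyp2c, Cyp3a and Ugt1a genes have close relatives, between which reads may be split, so single members are uncertain.

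Hepatocytes around the central vein carry much of the drug metabolism of the liver, and their marker genes were lower too. Of 12 pericentral hepatocyte genes, 0 rose and 7 fell (median -0.62, and 1 fell without wild type 3), with summed levels of 4060 to 7127 CPM in deficient and 7939 to 10859 CPM in wild-type livers. The pericentral falls numbered 3 with library size alone, with limma on log2 FPKM, or without deficient 1, deficient 3 or wild type 4. They numbered 4 with upper-quartile scaling or without deficient 4. Of 12 periportal genes, 1 rose and 3 fell (median -0.31, and 0 fell without wild type 3), with 64657 to 88834 against 95212 to 106918 CPM. Over all genes tested, 9.27% rose and 10.6% fell. Most of the periportal sum was Alb, and without Alb the groups overlapped, at 7805 to 9717 against 9187 to 12551 CPM. The pericentral sums without Cyp2e1, the most abundant gene of that list, did not overlap, at 2644 to 3925 against 4599 to 5575 CPM. No gene of either list was at 0 reads in every library. Cyp2c29 and Cyp1a2 are in the pericentral list and in a target list. The part of these zonal differences in the falls of Ahr, Nr5a2 and the drug genes was not tested. The count of falls among PXR and CAR targets was 8 with library size alone, 6 without deficient 1, without deficient 3 or without wild type 4, and 4 without wild type 3. Over all genes tested, falls numbered 1209 with TMM scaling and 843 with library size alone. The count of all genes called was also smaller without deficient 1, deficient 3 or wild type 3, as the last section gives.

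**Figure D4:**
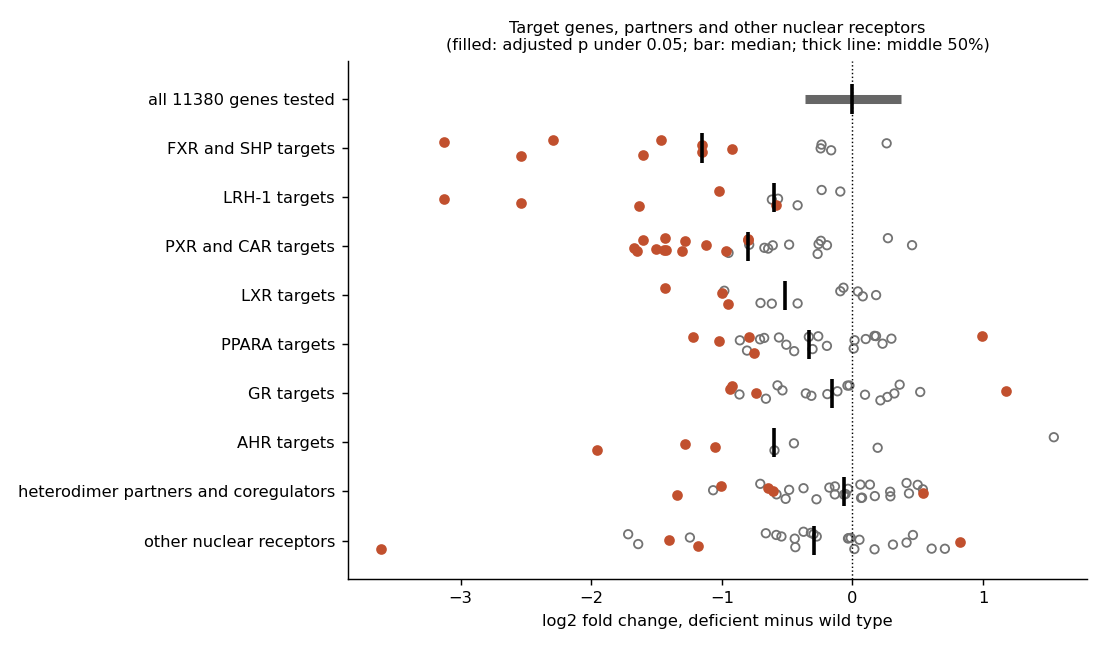
Log2 fold change, deficient minus wild type, of each tested gene in the target, partner and receptor lists; filled points have an edgeR adjusted p under 0.05, the short bar is the list median and the thick line at the top spans the middle 50% of all 11380 genes tested. The bile acid and drug lists lie mostly to the left of 0, with medians of -1.15 for FXR and SHP and -0.80 for PXR and CAR.

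Neither gene of a lipid-sensing receptor passed the test. Nr1h3 (ENSMUSG00000002108; chromosome 2, 91014406 to 91033179, minus strand), at 41.6, 28.1, 44.4 and 43.4 CPM in deficient 1 to 4 and 40.5, 28.4, 36.7 and 32.0 CPM in wild type 1 to 4, differed by 0.19 (SE 0.18, edgeR adjusted p = 0.474), with an interval of 87.2% to 150% of wild type. Deficient 2 was the lowest of the 8 libraries and the other 3 deficient libraries were above every wild-type one. Ppara (ENSMUSG00000022383; chromosome 15, 85619184 to 85687020, plus strand) was the steadiest of the receptor genes, at 53.5, 71.4, 68.0 and 66.5 CPM in deficient 1 to 4 and 58.2, 71.2, 65.6 and 65.8 CPM in wild type 1 to 4. It differed by -0.01 (SE 0.15, edgeR adjusted p = 0.979), with an interval of 79.8% to 124% of wild type. On the log2 scale this interval was the narrowest of the 9.

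Of 12 LXR targets tested, 0 rose and 3 fell, beside 9.27% and 10.6% of all genes tested, with a list median of -0.52. All 3 are genes of lipid synthesis. Mlxipl, which encodes the carbohydrate-responsive factor ChREBP, fell by 1.43 (SE 0.26, edgeR adjusted p = 0.00702), from 145 ± 58.6 to 53.6 ± 13.0 CPM (SD, n = 4). Srebf1, the master factor of fatty acid synthesis, fell by 1.0 (SE 0.19, edgeR adjusted p = 0.00816), with 50.6, 72.6, 58.6 and 76.0 CPM in deficient 1 to 4 against 136, 98.0, 162 and 120 CPM in wild type 1 to 4. Scd1, a fatty acid desaturase, fell by 0.95 (SE 0.21, edgeR adjusted p = 0.0122). The cholesterol exporter genes Abca1 (0.08, edgeR adjusted p = 0.806), Abcg1 (-0.07, 0.896), Abcg5 (-0.42, 0.223) and Abcg8 (-0.09, 0.827) did not pass. Pltp, which transfers phospholipid between lipoproteins, was at -0.98 (SE 0.40, edgeR adjusted p = 0.102), and its groups overlapped.

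Of 23 PPAR alpha targets tested, 1 rose and 4 fell, beside 9.27% and 10.6% of all genes tested. The median of the 23 was -0.33. Ehhadh, the peroxisomal bifunctional enzyme, stood at 90.8, 92.4, 108 and 101 CPM in deficient 1 to 4 against 213, 173, 240 and 170 CPM in wild type 1 to 4, and fell by 1.02 (SE 0.16, edgeR adjusted p = 0.00479). Cpt1a, the gate of mitochondrial fatty acid entry, fell by 0.80 (SE 0.17, edgeR adjusted p = 0.0111). The peroxisomal thiolase gene Acaa1b fell by 1.22 (SE 0.26, edgeR adjusted p = 0.0115). These 3 encode enzymes of fatty acid oxidation, while Ppara itself lay at 99.5% of wild type. The gene that rose was Plin2, a lipid droplet coat protein, at 0.99 (edgeR adjusted p = 0.0366), and this call was lost without deficient 1, 3 or 4 and without wild type 1, 3 or 4. DESeq2 called 7 falls in this list.

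The glucocorticoid receptor gene was lower in mean and did not pass. Nr3c1 (ENSMUSG00000024431; chromosome 18, 39543598 to 39652474, minus strand) stood at 45.1, 61.6, 50.2 and 61.5 CPM in deficient 1 to 4 and at 53.0, 65.0, 75.1 and 73.5 CPM in wild type 1 to 4. Deficient 2 and 4 lay within the wild-type range. The difference of -0.29 (SE 0.17, edgeR adjusted p = 0.247) left an interval of 63.6% to 106% of wild type.

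Its target list held 1 rise and 3 falls among 20 tested genes, with a median of -0.15. Over all genes tested, the shares were 9.27% higher and 10.6% lower. Hsd11b1, the enzyme that regenerates active glucocorticoid, fell by 0.74 (SE 0.16, edgeR adjusted p = 0.011), from 562 ± 54.0 to 337 ± 46.2 CPM (SD, n = 4). Igfbp1, an insulin-like growth factor binding protein, fell by 0.92 (SE 0.21, edgeR adjusted p = 0.0141). Its deficient 2, at 4081 CPM, lay just below wild type 1 at 4188 CPM. The urea cycle gene Cps1 fell by 0.94 (SE 0.24, edgeR adjusted p = 0.022) and lost its call without deficient 1, deficient 3 or wild type 3. G6pc, the last enzyme of glucose release, rose by 1.17 (SE 0.38, edgeR adjusted p = 0.0482), with 55.8 CPM in deficient 1 and 14.8 to 25.9 CPM in the other deficient libraries against 7.78 to 19.5 CPM in wild type, and its call was lost in 9 of 18 other settings, among them each library left out except deficient 2 and wild type 2. Fkbp5, a standard reporter gene of this receptor, stood at 232 ± 14.6 against 162 ± 38.7 CPM (SD, n = 4), a difference of 0.52 (edgeR adjusted p = 0.064). All 4 deficient values of Fkbp5 exceeded the wild-type values, although the adjusted p missed the threshold. Falls numbered 5 in DESeq2 and 6 without deficient 2.

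The transcript of the shared dimer partner was higher in mean. Rxra (ENSMUSG00000015846; chromosome 2, 27566452 to 27652969, plus strand) stood at 361.6, 368.9, 410.4 and 275.3 CPM in deficient 1 to 4 and at 204.3, 336.8, 286.0 and 337.8 CPM in wild type 1 to 4. Deficient 4 lay below 3 of the wild-type libraries. The difference of 0.28 (SE 0.20, edgeR adjusted p = 0.331) left an interval of 90.5% to 163% of wild type. The FPKM of each partner receptor was also set against that of Rxra within each library, a ratio that no library scaling can alter. Nr1h4 to Rxra was 0.247, 0.128, 0.138 and 0.411 in deficient 1 to 4 and 0.615, 0.237, 0.502 and 0.249 in wild type 1 to 4, a log2 difference of -0.84 (exact two-sided permutation p = 0.143). The difference was -0.35 for Nr1i2 (p = 0.4), -2.28 for Nr1i3 (p = 0.114, and -1.12 without deficient 1, which has 1 Nr1i3 read), -0.11 for Nr1h3 (p = 0.771) and -0.31 for Ppara (p = 0.171) by the same exact permutation test. The ratio of Nr0b2 to Nr1h4 ran from 0.0141 to 0.0376 in deficient and from 0 to 0.0294 in wild-type livers (exact permutation p = 0.171). Adjusted over the 7 ratios, the lowest p was 0.24. All 5 point estimates of ratios to Rxra were negative, and since they share Rxra they are not separate observations.

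Of 29 tested partners, chaperones and coregulators, 1 rose and 4 fell, with a median of -0.07, beside 9.27% and 10.6% of all genes tested. Fkbp4, a co-chaperone of steroid receptors, stood at 21.7, 18.1, 20.5 and 20.7 CPM in deficient 1 to 4 and at 48.8, 50.5, 61.7 and 44.9 CPM in wild type 1 to 4, and fell by 1.34 (SE 0.15, edgeR adjusted p = 0.00187). The 4 deficient libraries were close to each other and far from the wild-type ones. Hsp90ab1, the chaperone that holds AHR and the glucocorticoid receptor ready for ligand, fell by 0.61 (SE 0.14, edgeR adjusted p = 0.0153), from 738 ± 45.1 to 483 ± 45.2 CPM (SD, n = 4). The corepressor gene Nrip1 fell by 1.01 (SE 0.28, edgeR adjusted p = 0.0261), a call lost without deficient 1, 3 or 4 or wild type 3. The number of rises was 5 with library size alone, 4 with upper-quartile scaling and 0 without deficient 1, 3 or 4 or without wild type 2, 3 or 4. The number of falls was 2 without deficient 1, deficient 3 or wild type 3.

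Among 40 other nuclear receptor genes, 27 were expressed enough to test, of which 1 rose and 3 fell, with a median of -0.30. Of all genes tested, 9.27% rose and 10.6% fell, so the share of falls here is close to that of all genes. Esr1, the estrogen receptor alpha, stood at 6.94, 12.7, 11.3 and 15.0 CPM in deficient 1 to 4 against 24.2, 30.2, 38.1 and 29.5 CPM in wild type 1 to 4, and fell by 1.41 (SE 0.23, edgeR adjusted p = 0.00492). Thrb, the thyroid hormone receptor beta of hepatocytes, fell by 1.19 (SE 0.22, edgeR adjusted p = 0.00676), from 14.1 ± 3.45 to 6.19 ± 1.05 CPM (SD, n = 4). Esrrg, an orphan receptor of energy metabolism, had 0, 3, 2 and 7 reads in deficient 1 to 4 and 51, 10, 59 and 18 in wild type 1 to 4, and fell by 3.61 (SE 0.75, edgeR adjusted p = 0.0104), or -4.40 without deficient 4. With limma on log2(FPKM + 1), which understates the change of low genes, the estimates were -0.73 for Esr1 and -0.57 for Thrb. Esrra, a relative of Esrrg, rose by 0.82 (SE 0.26, edgeR adjusted p = 0.0451), except that deficient 2, at 6.21 CPM, lay among the wild-type values. The call of Esrra was lost in 9 of 18 other settings, among them each library left out except deficient 2. Hnf4a, the receptor that maintains hepatocyte identity, stood at 590 ± 168 against 602 ± 91.3 CPM (SD, n = 4) and differed by -0.03 (SE 0.22, edgeR adjusted p = 0.942). DESeq2 called 5 falls in this list.

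Inflammatory signals that are known to act on these receptors were also read. Of 18 acute phase and interleukin-6 response genes, 2 rose and 3 fell, with a median of -0.06. Their summed level was higher in mean in deficient libraries, at 88075 to 101520 CPM against 55747 to 88326 CPM in wild type, with a slight overlap. Over all genes tested, the shares were 9.27% higher and 10.6% lower. Il6 itself was low, at 0.784, 0.683, 0.289 and 1.03 CPM in deficient 1 to 4 and 5.38, 3.16, 3.17 and 0.897 CPM in wild type 1 to 4, and fell by 2.16 (SE 0.53, edgeR adjusted p = 0.018), with an adjusted p of 0.051 without deficient 3. Socs3, the feedback inhibitor that interleukin-6 induces, fell by 1.55 (SE 0.25, edgeR adjusted p = 0.00481), from 615 ± 93.2 to 209 ± 80.7 CPM (SD, n = 4). Crp, an acute phase protein, fell by 1.01 (SE 0.22, edgeR adjusted p = 0.0126). Orm2, another, rose by 0.87 (SE 0.17, edgeR adjusted p = 0.00755), and so did Lcn2, by 0.60 (edgeR adjusted p = 0.0346), a gene also in the neutrophil list, whose call was lost in 5 settings that leave out a library. The number of rises ran from 1 to 7 over the other settings, 7 with library size alone. The part of these differences in the receptor values was not tested.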

How the data were processed

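RNA was profiled in 8 liver samples of ConA-treated mice, and each sample was grouped by the genotype in its labels. The authors deposited a raw read count per gene and library and, per the file headers, an FPKM value, which matched one recomputed from count, gene length and library total within 7e-05%. The submitters' processing notes name cutadapt and HISAT2 2.0.5, with the build, annotation, counting program and strand setting not given in the sources used here.

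Counts were tested with edgeR 4.0.16 (R 4.3.3), with TMM scaling and its default expression filter, which left 11380 genes and removed 10519. P-values were Benjamini-Hochberg adjusted over all genes tested, with a threshold of 0.05. The SE of a log2 fold change is its size over the square root of the F statistic. Outside the alternatives with limma, FPKM served only to rank levels and form ratios. The p-values of the ratios come from all 70 assignments of libraries to groups.

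The receptor genes and all lists were chosen with earlier results of these data known. The text names all receptor genes and up to 4 genes of each target, partner, receptor and acute phase list with the smallest unadjusted p. Alb, Abcb11, Gnmt, Abca1, Abcg1, Abcg5, Abcg8, Cyp1a1, Cyp1a2, Cyp3a11, Cyp2b10, Plin2, Fkbp5, Hnf4a, Lcn2, Sox9 and Cyp2e1 were added with their values seen. A few list members are counted but not reported by name here. Alternatives were DESeq2 1.42.0, limma 3.58.1 (voom, and log2 FPKM with a pseudocount of 1 or 0.1), other scalings and filters, robust fitting, a replicate block and each library left out. Sums of cell lists without their most abundant gene were added after seeing the data. The edgeR fit was tested on simulated data, with 98 genes changed 2-fold and 97 changed 4-fold among 11238. In the real data 19.9% of genes were called, a far larger share, so the simulated rates may not carry over. In the simulation the edgeR fit recovered 46.9% of 2-fold and 92.8% of 4-fold changes, with 4 false calls. A gene that did not pass may therefore still differ. Replicate numbers did not pair the libraries, since the deviations of libraries with the same number correlated at -0.11 to 0.13.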

Additional observations from a re-analysis of the deposited data

Results flagged for a closer look

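In groups of 4, a library was singled out where its gap to the nearest other, as a share of the range of the group, passed Dixon's critical value at 95%. Of 112 groups of values, 9 met this, and chance alone flags about 1 in 20. No CPM value of the 10 receptor genes was among them.

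Wild type 3 was the high library for 3 target genes, with Cyp7a1 at 1.91, Acaa1b at 459.2 and Cyp8b1 at 54.9 CPM. Wild type 1 was high for Plk3, at 1053 CPM, and low for Igfbp1, at 4188 CPM. Deficient 2 was high for Igfbp1, at 4081 CPM, and low for Esrra, at 6.21 CPM. Deficient 1 was high for Cyp1b1, at 9.23 CPM. Deficient 4 was low for the ratio of Nr0b2 to Nr1h4, at 0.0141, which rests on 5 Nr0b2 reads.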

How the results depend on the processing

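The receptor counts, 0 higher and 2 lower, held in all 18 alternatives, with Ahr at -2.10 to -1.36 (largest adjusted p 0.0342) and Nr5a2 at -0.97 to -0.62 (largest adjusted p 0.0294). The sign of the estimates nearest 0 was not stable. The log2 fold change of Nr1i2 was 0.1116 with library size alone, 0.0909 with upper-quartile scaling, and 0.0884 and 0.0938 with limma on log2 FPKM plus 1 or 0.1, and -0.153 to 0.0897 with a library left out. The log2 fold change of Ppara was 0.139, 0.111, 0.1264 and 0.1328 in the same settings, 0.023 with no filter and 0.0049 with a filter at 1 CPM, and -0.0709 to 0.0757 with a library left out. The log2 fold change of Hnf4a was 0.1194, 0.0882, 0.083 and 0.0833 in those settings, 0.0018 with no filter and -0.1611 to 0.129 with a library left out. The log2 fold change of Abcg8 was 0.0434, 0.0277, 0.0614 and 0.0724 there and the log2 fold change of Abcg1 0.0684 and 0.0481 with the first pair of scalings. With a library left out, Abcg8 ran from -0.2662 to 0.1362, Abcg1 from -0.3041 to 0.1376 and the log2 fold change of Abca1 from -0.0498 to 0.1602. The ratio of Nr1h3 to Rxra differed by -0.28 to 0.13 with a library left out. The count of all genes called, 2264, ran with a library left out from 982 without wild type 3 to 2388 without deficient 2, and was 1482 without deficient 1 and 1224 without deficient 3. The counts given above for single lists with a library left out are to be read beside these totals. The highest count of all genes called was 2945, with DESeq2. With the replicate block that count was 1768 and both receptor calls held. In the check of the pairing, 0 of 4 deficient libraries resembled their own number most. TMM gave 46.6% of calls as higher, against 67.2% with library size alone, 62.8% with upper-quartile scaling and 66.3% with limma on FPKM, where the median of all genes moved by 0.145, 0.122 and 0.123. The cause was not tested. Depth limits Nr0b2 and Nr1i3 in particular.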
